A study of Mus musculus with 7 samples.

Results

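Red blood cell genes were examined by RNA-seq in the ovarian stroma, taken as the ovary depleted of granulosa cells, of mice with and without the progesterone receptor (PGR). The set was a fixed list of 6 genes that mature red cells and their precursors express: the adult alpha globin genes *Hba-a1* and *Hba-a2*, the adult beta globin genes *Hbb-bs* and *Hbb-bt*, the erythroid haem synthesis gene *Alas2* and the red cell anion exchanger gene *Slc4a1*. All 6 were found among the 52230 genes of the files. The list was not drawn by a measured value, though it was chosen with earlier results of these data known. The WT group held 4 libraries (WT replicates 1 to 4, genotype PGR +/+) and the KO group 3 libraries (KO replicates 2 to 4, genotype PGR -/-), all from females of the strain labelled PRKO; Pgrtm1Bwo, a line that lacks PGR in every tissue and not in the ovary alone. Every mouse of both groups received 5 IU eCG (named PMSG in the labels) and, 44 h later, 5 IU hCG, and ovaries were collected 8 h post-hCG. The sample labels give an age of 21 to 27 days. Each library was a pool of tissue from 3 mice, the ovaries had been punctured repeatedly to release granulosa cells, and the methods mention no perfusion, so blood of the ovarian vessels could enter the tissue. As each pool is a separate sample, the p-values measure the spread between these pools and not between single mice.

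Haemoglobin is a tetramer of alpha-like and beta-like globin chains, each carrying a haem group, and fills the red cell. Adult mouse red cells have no nucleus and make no new RNA, while young red cells (reticulocytes) still carry globin mRNA made by their precursors in bone marrow and spleen. Globin reads in a tissue such as the ovary are therefore commonly read as a trace of blood. In bulk tissue, more or fewer blood cells cannot be told apart from more or less globin RNA per cell.

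*Pgr* itself was measured first, as the check of the labels. The *Pgr* level in CPM (read counts relative to the scaled size of the library) was 19.5, 31.0, 21.5 and 16.9 in WT replicates 1 to 4, and 6.13, 6.52 and 7.56 in KO replicates 2 to 4. All 3 KO libraries were lower than any WT library, with a log2 fold change of -1.72 (SE 0.20, edgeR adjusted p = 0.0544), and the labels matched the data. The libraries held 47372446 to 63416875 reads, with KO replicate 3 the lowest and WT replicate 4 the highest. Markers of stromal fibroblasts (2999 to 4068 TPM in sum), theca cells (5102 to 7762 TPM) and smooth muscle (1081 to 1761 TPM) were abundant in every library, and granulosa markers were still present (2447 to 3912 TPM).

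The copies of each globin pair are nearly the same in sequence, which bears on how reads were divided between them. The coding sequences of *Hba-a1* and *Hba-a2* (426 bases each) differed at 1 base, written C381T with the *Hba-a1* base first and counted from the first coding base, and were 99.77% identical. Those of *Hbb-bs* and *Hbb-bt* (441 bases each) also differed at 1 base, C417T with the *Hbb-bs* base first, and were likewise 99.77% identical. The stretches that end at these bases (coding bases 322 to 381 of the alpha copies and 358 to 417 of the beta copies, from the GENCODE transcripts on GRCm39) are shown 5′ to 3′, with the differing base in capitals, since they are where the copies can be told apart within the coding sequence.
Hba-a1: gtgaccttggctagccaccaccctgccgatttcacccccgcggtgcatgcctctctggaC
Hba-a2: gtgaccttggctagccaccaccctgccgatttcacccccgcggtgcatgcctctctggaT
Hbb-bs: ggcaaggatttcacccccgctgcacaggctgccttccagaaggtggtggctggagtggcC
Hbb-bt: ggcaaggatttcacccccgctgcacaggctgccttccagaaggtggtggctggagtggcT
Of all stretches of 100 bases (1 sequenced read end) in the *Hba-a1* transcript, 70.1% also occurred in *Hba-a2*, and 81.8% of those in *Hba-a2* occurred in *Hba-a1*. For the beta copies these shares were 58.6% for *Hbb-bs* and 54.7% for *Hbb-bt*. No stretch of that length was shared between *Hba-a1* and *Hbb-bs*. These shares were computed on the GENCODE M39 transcripts (738 and 647 bases for *Hba-a1* and *Hba-a2*, 664 and 704 for *Hbb-bs* and *Hbb-bt*), while Salmon divided the reads on versions of 699, 554, 628 and 703 bases, so they only approximate the sequence shared there. The alpha pair and the beta pair were therefore also summed and analysed as 2 units, whose read totals do not depend on the division between copies.

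In the GRCm39 annotation, the alpha genes lie on the plus strand of chromosome 11, *Hba-a1* at chr11:32233186-32234504 and *Hba-a2* at chr11:32246168-32247320. The beta genes lie on the minus strand of chromosome 7, *Hbb-bs* at chr7:103475730-103482989 and *Hbb-bt* at chr7:103461727-103465047. *Alas2* is on the plus strand of chromosome X (chrX:149330371-149353634), and *Slc4a1* is on the minus strand of chromosome 11 (chr11:102239650-102257029). All 6 are protein-coding genes.

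The RefSeq promoter table, whose build is GRCm38.p6 and whose coordinates differ from those above, held no entry for *Slc4a1*. For the other 5 genes, the 120 bases upstream of their starts are shown. They are written 5′ to 3′ on the strand of the gene. Capitals mark every match on either strand to the core of the CACC box (CACCC), of the CCAAT box (CCAAT itself), of the TATA box (TATAA) or of a GATA site (GATAA).
Hba-a1 (chr11:32283552-32283671, plus strand): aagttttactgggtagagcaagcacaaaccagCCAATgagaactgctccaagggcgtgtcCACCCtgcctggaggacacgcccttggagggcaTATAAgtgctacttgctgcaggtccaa
Hba-a2 (chr11:32296372-32296491, plus strand): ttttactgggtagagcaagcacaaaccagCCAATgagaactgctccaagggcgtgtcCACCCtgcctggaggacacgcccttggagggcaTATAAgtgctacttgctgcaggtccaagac
Hbb-bs (chr7:103827929-103828048, minus strand): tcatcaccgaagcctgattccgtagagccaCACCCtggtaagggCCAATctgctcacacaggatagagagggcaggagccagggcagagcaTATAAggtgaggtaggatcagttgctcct
Hbb-bt (chr7:103813924-103814043, minus strand): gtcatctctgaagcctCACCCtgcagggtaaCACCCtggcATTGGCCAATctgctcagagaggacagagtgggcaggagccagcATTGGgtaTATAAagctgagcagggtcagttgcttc
Alas2 (chrX:150547297-150547416, plus strand): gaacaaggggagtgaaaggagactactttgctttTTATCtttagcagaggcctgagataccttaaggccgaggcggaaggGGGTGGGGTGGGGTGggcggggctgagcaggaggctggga
Each of the 4 globin windows held a match to CACCC, to CCAAT and to TATAA. *Hbb-bt* held 2 matches to CACCC and 3 to CCAAT, of which a pair on opposite strands lie side by side without overlap, and *Hba-a1*, *Hba-a2* and *Hbb-bs* held 1 match to each. The *Alas2* window held 3 matches to CACCC and 1 to GATAA. Among 32851 promoter windows of the same length, 31.7% held CACCC, 21.3% CCAAT, 11.8% TATAA and 10.5% GATAA on either strand. A match is a description of these letters and not evidence of a bound site.

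The adult globins were among the more abundant transcripts of the stromal tissue. In TPM (abundance relative to all transcripts, corrected for length), the mean level over the 7 libraries was 682 for *Hbb-bs*, 431 for *Hba-a2*, 244 for *Hba-a1*, 58.4 for *Hbb-bt*, 3.77 for *Alas2* and 0.112 for *Slc4a1*. This order held in each of the 7 libraries. By TPM rank among the 52230 genes, *Hbb-bs* stood between 140 and 244 and *Hba-a2* between 202 and 387. *Hba-a1* ranked between 365 and 695 and *Hbb-bt* between 1719 and 3295, while *Alas2* ranked between 11088 and 12389 and *Slc4a1* between 17663 and 23492. All 6 genes passed the filter on low counts.

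The alpha chain genes encode the alpha subunit of adult haemoglobin. In CPM, WT replicates 1 to 4 had *Hba-a1* levels of 76.5, 82.3, 76.5 and 67.9, and KO replicates 2 to 4 had 74.3, 129 and 75.6. The *Hba-a2* level was 95.8, 108, 94.5 and 86.7 CPM in the WT libraries and 90.7, 168 and 92.1 CPM in the KO libraries, listed likewise. For both copies, KO replicate 3 was the highest library and the other KO libraries lay within the WT range, so the groups overlapped. The *Hba-a1* mean was 75.8 ± 5.93 CPM in WT (SD, n = 4) and 93.1 ± 31.3 CPM in KO (SD, n = 3), a log2 fold change of 0.30 (SE 0.18) that did not pass the threshold (edgeR adjusted p = 0.683). The *Hba-a2* mean was 96.3 ± 8.81 CPM in WT and 117 ± 44.4 CPM in KO, a log2 fold change of 0.28 (SE 0.20, edgeR adjusted p = 0.736). Summed, the alpha pair had a fold of 1.22 of KO over WT, with a 95% interval of 0.901 to 1.65 (edgeR adjusted p = 0.719).

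The beta chain genes encode the other subunit of adult haemoglobin. For *Hbb-bs*, WT replicates 1 to 4 had 213, 207, 179 and 161 CPM, and KO replicates 2 to 4 had 178, 302 and 166 CPM. The *Hbb-bt* level was 20.8, 19.9, 18.6 and 16.5 CPM in the WT libraries and 18.0, 30.5 and 16.8 CPM in the KO libraries. Again KO replicate 3 stood above all others, and KO replicates 2 and 4 lay within the WT range. The *Hbb-bs* mean was 190 ± 24.7 CPM in WT and 215 ± 75.6 CPM in KO, a log2 fold change of 0.18 (SE 0.20, edgeR adjusted p = 0.836). The *Hbb-bt* mean was 19.0 ± 1.86 CPM in WT and 21.7 ± 7.58 CPM in KO, a log2 fold change of 0.20 (SE 0.19, edgeR adjusted p = 0.818). The beta pair had a fold of 1.14, with a 95% interval of 0.83 to 1.55 (edgeR adjusted p = 0.833). For neither pair does this interval exclude equal levels, nor an increase of the size of its upper bound.

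*Alas2* encodes the erythroid form of aminolevulinate synthase, which starts haem synthesis in red cell precursors. WT replicates 1 to 4 had 4.79, 4.35, 4.93 and 3.76 CPM of it, and KO replicates 2 to 4 had 4.00, 6.67 and 3.86 CPM. As for the globins, KO replicate 3 was the highest library and WT replicate 4 the lowest. The mean was 4.46 ± 0.525 CPM in WT and 4.84 ± 1.58 CPM in KO, a log2 fold change of 0.12 (SE 0.20, edgeR adjusted p = 0.909).

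*Slc4a1* encodes band 3, the chloride and bicarbonate exchanger that anchors the red cell skeleton to the membrane. It was counted in 8, 11, 10 and 18 reads in WT replicates 1 to 4, and in 10, 14 and 55 reads in KO replicates 2 to 4, which are 126 reads in all. Here KO replicate 4 stood alone: its 55 reads have an exact Poisson 95% interval of 41.4 to 71.6, while the highest of the other libraries, WT replicate 4, has 10.7 to 28.4. Scaled to depth, *Slc4a1* was 0.949 CPM in KO replicate 4 and between 0.154 and 0.292 CPM in the other 6 libraries. The log2 fold change of KO over WT was 1.16 (SE 0.55, edgeR adjusted p = 0.575), and without KO replicate 4 it was 0.12. These intervals cover counting error only.

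**Figure D1:**
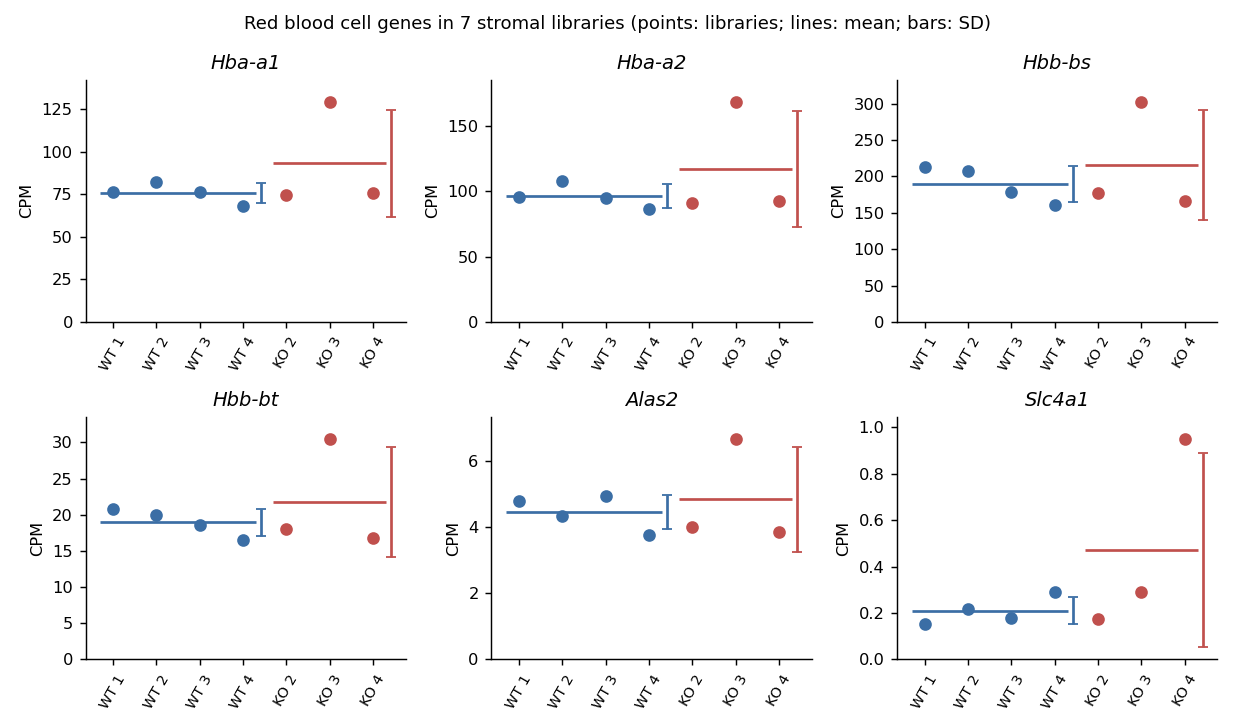
Levels of the 6 red blood cell genes in CPM (vertical axes from 0) in the 4 WT (blue) and 3 KO (red) libraries; points are libraries, horizontal lines group means and bars 1 SD. KO replicate 3 is highest for the globins and *Alas2* (129 CPM for *Hba-a1*, 302 CPM for *Hbb-bs*), and KO replicate 4 for *Slc4a1* (0.949 CPM).

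Over all genes, edgeR called 2 of 19233 (0.0104%) different between KO and WT where a call needed adjusted p ≤ 0.05 and |log2 fold change| ≥ 0.5, and DESeq2 called 145. None of the 6 red blood cell genes was called by either tool, and none had an unadjusted edgeR p under 0.05, against 8.94% of all genes tested. None had KO and WT libraries that did not overlap, against 9.05% of all genes. The median log2 fold change was 0.24 over the 6 genes and 0.00 in size over all genes, and all 6 fold changes were positive. The exact two-sided permutation test over the 35 ways of assigning the libraries, whose smallest p is 0.0286, gave p between 0.257 for *Slc4a1* and 0.800 for *Alas2*.

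The positive fold changes of 5 genes came with KO replicate 3. In this library the level was 1.71 times the mean of the other 6 libraries for *Hba-a1*, 1.78 times for *Hba-a2*, 1.65 times for both *Hbb-bs* and *Hbb-bt*, and 1.56 times for *Alas2*. For *Slc4a1* it was 0.892 times. Among all tested genes, 1.997% had a ratio at least as high as that of *Hba-a1*, 1.51% as that of *Hba-a2*, 2.53% as that of *Hbb-bs*, 2.47% as that of *Hbb-bt* and 3.46% as that of *Alas2*, and the median ratio was 0.994. Without KO replicate 3, the log2 fold change turned negative for all 5, to -0.01 for *Hba-a1*, -0.07 for *Hba-a2*, -0.14 for *Hbb-bs*, -0.12 for *Hbb-bt* and -0.18 for *Alas2*. Leaving out any other library kept it positive. The coefficient of variation over the libraries without KO replicate 3 was 6.13% for *Hba-a1*, 7.68% for *Hba-a2*, 11.7% for *Hbb-bs*, 9.25% for *Hbb-bt* and 11.5% for *Alas2*, and with it between 21.8% and 27.2%.

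**Figure D2:**
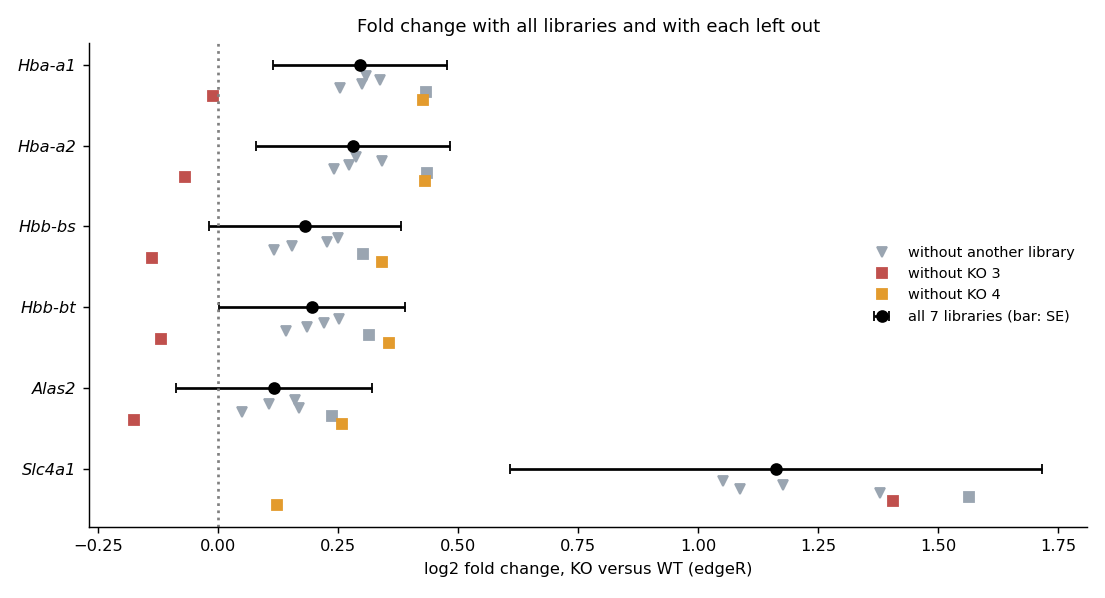
Log2 fold change of KO over WT from edgeR for each gene, with all 7 libraries (black, bar 1 SE) and with each library left out in turn (triangles WT, squares KO; red without KO replicate 3, orange without KO replicate 4, grey without another). Without KO replicate 3, the values of the globins and *Alas2* lie below 0, and without KO replicate 4 that of *Slc4a1* falls from 1.16 to 0.12.

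The globin copies kept their proportions while their level moved. *Hbb-bt* gave between 8.76% (Wilson 95% interval 8.26% to 9.29%) and 9.42% (8.89% to 9.98%) of the beta pair's reads, and 9.15% in KO replicate 3. *Hba-a2* gave between 54.9% and 56.8% of the alpha pair's reads. The exact permutation test separated KO from WT in neither share (p = 0.714 and 0.457). As the division of shared reads between copies is Salmon's estimate, each share describes that estimate. The ratio of alpha pair to beta pair reads, which needs no such division but is not corrected for length, was 0.737 in WT replicate 1, 0.838 in WT replicate 2, 0.868 in WT replicate 3 and 0.874 in WT replicate 4. In the KO libraries it was 0.844, 0.894 and 0.917 in replicates 2, 3 and 4. The groups overlapped, and the means of 0.83 ± 0.0633 in WT and 0.885 ± 0.0373 in KO were not separated by the exact permutation test (p = 0.257). Globin TPM was between 326 and 413 times the *Alas2* TPM, with KO replicate 3 at 399.

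Over the 7 libraries, the alpha and beta pairs moved together (Pearson's r = 0.95, exact permutation p = 0.00357, adjusted p = 0.00952, 8 relations; Spearman's rho = 0.93, p = 0.00675, adjusted p = 0.018). Without the 2 libraries farthest from the median, KO replicate 3 and WT replicate 2, r was 0.71, and with each genotype centred on its mean it was 0.96. *Alas2* followed the beta pair (r = 0.92, exact permutation p = 0.0117, adjusted p = 0.0234; rho = 0.89, p = 0.0123, adjusted p = 0.0246) and the alpha pair (r = 0.89, p = 0.0244, adjusted p = 0.039; rho = 0.82, p = 0.0341, adjusted p = 0.0546). These relations rested in part on KO replicate 3, since without it alone r was 0.69 with the beta pair and 0.51 with the alpha pair. Without the 2 farthest libraries, r was 0.55 with the beta pair and 0.77 with the alpha pair. *Slc4a1* followed none of them: r was 0.02 with the alpha pair, -0.20 with the beta pair and -0.25 with *Alas2* (exact permutation, adjusted p = 0.969, 0.695 and 0.695; rho 0.04, -0.25 and -0.21, adjusted p = 0.963, 0.757 and 0.757). The copies within a pair had r = 0.99 in both pairs (exact permutation, adjusted p = 0.00159 for alpha and 0.00158 for beta). Their rho was 0.96 and 1 (exact permutation, adjusted p = 0.0111 and 0.00318), and r was still 0.99 and 0.97 without the 2 farthest libraries. Salmon divided the reads that the copies share, so this likeness is in part built in. It does not show that the copies moved together as separate genes.

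Among 14882 genes with a mean of at least 1 CPM, those with a pattern most like the beta pair over the 7 libraries, by Pearson's r of log2 CPM, were *Gm5834* (0.96), *Tmcc3* (0.95), *Hba-a2* (0.95), *Trdmt1* (0.95), *Gm15832* (0.94), *Hba-a1* (0.94), the Y-linked gene *Kdm5d* (0.93), *Gm42929* (0.93), *Paf1* (0.93) and *Gm45110* (0.93). As all mice were female, the source of the reads assigned to *Kdm5d* is unclear and was not tested. *Alas2* came at rank 17 (0.92). The genes least like it were *Ap5b1* (-0.99), *Zfp429* (-0.98), *Dnajc14* (-0.96), *Zfp239* (-0.96) and *Ttyh3* (-0.95). Without KO replicate 3 the ranks of *Hba-a2*, *Hba-a1* and *Alas2* fell to 695, 972 and 1331. These 7 points share 1 high library.

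The 4 adult globin genes together took 0.0387%, 0.0417%, 0.0368% and 0.0325% of the reads in WT replicates 1 to 4, and 0.0360%, 0.0639% and 0.0354% in KO replicates 2 to 4. The Wilson 95% interval of the highest, KO replicate 3, was 0.0631% to 0.0646%, and that of the lowest, WT replicate 4, was 0.0321% to 0.0330%, so that counting error is small beside these differences. The mean share was 0.0374% ± 0.00384 in WT (SD, n = 4) and 0.0451% ± 0.0162 in KO (SD, n = 3; exact permutation p = 0.514).

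The share was lower in deeper libraries, while the number of globin reads hardly moved in 6 libraries. Unscaled globin reads were 21133, 21015, 20755 and 20633 in WT replicates 1 to 4, and 20754, 30252 and 20324 in KO replicates 2 to 4. Over the 6 libraries other than KO replicate 3, they had a coefficient of variation of 1.38%, against 7.51% for total reads and 8.88% for the same reads in CPM. Single copies varied more, by 3.41% for *Hba-a1*, 3.08% for *Hba-a2*, 4.82% for *Hbb-bs* and 3.75% for *Hbb-bt*. Of 8781 tested genes with a mean of at least 1000 reads, 1 had a coefficient of variation of unscaled reads as low as that of the globin sum, 1.88% had one as low as that of *Hbb-bs*, and the median was 10.5%. For *Alas2*, the value was 9.09%, and 32.7% of those genes had one as low. *Alas2* lies below that minimum, with 219 to 278 reads in these 6 libraries. Its counting error alone is 6.76% at its lowest count, so its value is not like for like with theirs.

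Total reads and globin share had r = -0.84 over the 7 libraries (exact permutation p = 0.000397, adjusted p = 0.000794) and rho = -0.96 (p = 0.00278, adjusted p = 0.00556), in a family of 4 relations chosen after the values were seen. Without KO replicate 3 and WT replicate 4, the 2 libraries with the farthest totals, r was -0.99, and with each genotype centred it was -0.84. For the alpha pair in CPM, r was -0.81 (adjusted p = 0.000792, exact permutation), with rho = -1 (adjusted p = 0.00159), and -0.98 without those 2 libraries. For the beta pair, r was -0.86 (adjusted p = 0.00476, exact permutation), with rho = -0.93 (adjusted p = 0.009), and -0.78 without them. For *Alas2*, r was -0.78 (adjusted p = 0.0419, exact permutation) with rho = -0.82 (adjusted p = 0.0341), but only -0.26 without them. Total reads are the divisor of each of these measures, so the relation shares a term by construction, and the part of depth in the globin levels was not tested.

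**Figure D3:**
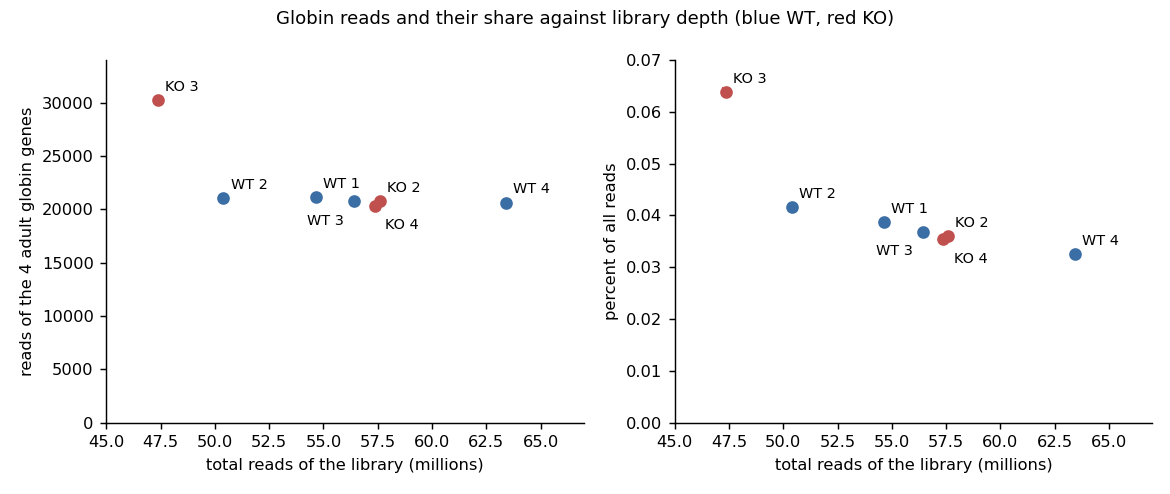
Reads of the 4 adult globin genes (left) and their percent of all reads (right, bars the Wilson 95% interval, smaller than the points) against total reads of each library (axis in units of 10 to the power of 6, starting at 45). Apart from KO replicate 3 at 30252, the libraries hold 20324 to 21133 globin reads at all depths.

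KO replicate 3 was also the highest library for genes outside the red cell. All 8 oocyte markers tested were highest in it, by 1.47 times the other 6 libraries in median, and their summed TPM ran from 235 to 332 in WT and from 302 to 420 in KO. In KO as a group, *Zp2*, *Nlrp5* and *Dppa3* had an unadjusted p under 0.05, and no oocyte marker was called. The 18S ribosomal RNA gene *Rn18s-rs5* was 3922 CPM in KO replicate 3 and 1325 to 2065 CPM elsewhere, and the heat shock genes *Hspa1a* (849 CPM, against 237 to 574) and *Dnajb1* (326 CPM, against 108 to 214) were highest there as well. These 3 genes were chosen after their values were seen. Their part in the globin level was not tested.

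Fragment length was like that of the other libraries: the median difference between length and effective length was 192 bases in KO replicate 3 and 187 to 202 bases elsewhere. Of 163 tested genes with a main transcript of 550 to 710 bases and a mean of at least 10 CPM, 4 were the adult globins. Over the other 159, the median ratio of KO replicate 3 to the other libraries was 1.02, and 2 (1.26%) reached that of *Hbb-bs*.

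Markers of vessels and of the other blood cells differed from list to list in KO replicate 3. Of 13 endothelial markers, which mark the vessel wall, 0 were highest in it, 12 had a ratio below 1 and the median ratio was 0.918, and their summed TPM was 823 to 949 in WT and 838 to 912 in KO. Globin TPM was 1.34 to 1.55 times the summed endothelial TPM in 6 libraries and 2.60 times in KO replicate 3, with no separation of KO from WT (exact permutation p = 0.343). Of the 10 neutrophil markers listed, 8 were tested and 1 was highest in KO replicate 3 (*Csf3r*, ratio 1.4), and the median ratio was 0.946. The granule protein genes *S100a8* and *S100a9* are among the most abundant transcripts of blood neutrophils. In KO replicate 3 *S100a8* was at 0.396 CPM (0.259 to 0.537 elsewhere, ratio 1.02) and *S100a9* at 0.834 CPM (0.414 to 0.903 elsewhere, ratio 1.14). Platelet markers had 6 of 12 genes tested and a median ratio of 1.16, with 1 highest in KO replicate 3, and summed TPM of 75.3 to 77.9 in WT and 81.3 to 98.0 in KO. *Itgb3* made up most of that sum at a mean of 59.7 TPM. *Ppbp* (0.143 TPM) and *Gp9* (0.0701 TPM), which mark platelets more narrowly, were near 0. Of the platelet genes tested, the one highest in KO replicate 3 was *Clec1b*, with a ratio of 1.77. The ratio was 2 for *Gp5* (17 reads there), 1.16 for *Pf4*, 1.15 for *Itga2b*, 1.03 for *Gp1bb* and 0.915 for *Itgb3*. Lymphocyte markers (7 of 10 tested) had a median ratio of 1.20, with 2 highest in KO replicate 3, and macrophage markers (8 of 8) had 0.959, with 0 highest in it.

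Over all genes tested, 15.3% were highest in KO replicate 3. Of the 8 haem synthesis genes 2 were highest in it (25%), and of the 18 tested genes of haem clearance and iron 4 were (22.2%). Of the 13 tested red cell membrane and skeleton genes, 1 was highest in it. That gene, *Rhd* (named after its values were seen), which encodes a rhesus group protein of the red cell membrane, was 1.58 CPM there and 0.820 to 1.20 CPM elsewhere. Of the 12 maturation genes tested, 3 were highest in it, among them *Bpgm*, which makes the 2,3-bisphosphoglycerate that lowers the oxygen affinity of haemoglobin (84.2 CPM against 55.4 to 70.5), and *Tspan33*, a tetraspanin of erythroid precursors (2.83 CPM against 1.56 to 1.998). Of the 8 tested regulators 0 were highest in it, including the erythroid transcription factors *Gata1* (15 reads in KO replicate 3, 11 to 21 elsewhere) and *Klf1* (10 reads, 4 to 14 elsewhere). The haem-degrading enzyme gene *Hmox1*, named after its values were seen, was highest in KO replicate 3, at 83.6 CPM against 56.4 to 71.4 CPM, with a log2 fold change of KO over WT of 0.23 (SE 0.11, edgeR adjusted p = 0.569).

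**Figure D4:**
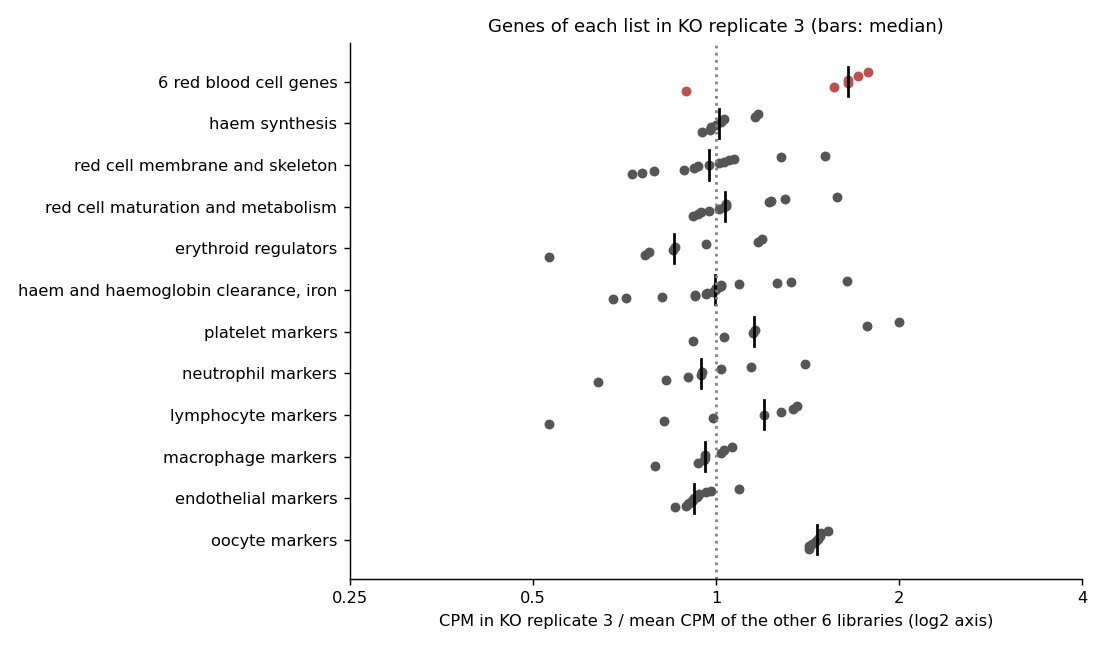
Level of each tested gene in KO replicate 3 as a ratio to the mean of the other 6 libraries (log2 axis, dotted line at equal levels, bars the list's median), by list. In the list of 6 red blood cell genes 5 lie between 1.56 and 1.78 and *Slc4a1* at 0.892, oocyte markers have a median of 1.47 and endothelial markers 0.918.

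The high *Slc4a1* count of KO replicate 4 had few companions. This library's *Slc4a1* level was 4.36 times the mean of the others, a ratio reached by 7 of all tested genes (0.0364%), *Slc4a1* included. All *Slc4a1* reads were assigned to a single transcript. The precursor gene *Hemgn* gave 7 reads in KO replicate 4 and 0 to 3 elsewhere, *Rhag*, the Rh-associated glycoprotein gene, 6 reads and 0 to 3 elsewhere, and the blood group gene *Kel* 4 reads and 1 in each other library. Their exact Poisson 95% intervals overlapped those of other libraries (for *Hemgn* 2.81 to 14.4 in KO replicate 4 and 0.619 to 8.77 in WT replicate 4). The globins and *Alas2* were at 0.804 to 0.895 times the mean of the other libraries in KO replicate 4.

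Embryonic and minor globins were at or near 0. *Hbb-bh0*, *Hbb-bh1* and *Hbb-bh2* had 0 reads in all 7 libraries, for which the limit used here is 3 reads, or 0.0482 to 0.0625 CPM, in each library (a one-sided bound at about 95%, for counting error only). The embryonic genes *Hba-x* and *Hbb-y* had 1 read each in all, and the theta globin genes *Hbq1a* and *Hbq1b* had 6 and 15. None of these 7 genes passed the filter, so the adult genes accounted for nearly all globin reads.

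Between KO and WT, the wider red cell lists held no called gene in edgeR or DESeq2. Of all genes tested, 3.84% were higher and 5.1% lower at an unadjusted edgeR p under 0.05, and 9.05% had groups without overlap. Haem synthesis, whose enzymes work in every cell, had 8 of 8 genes tested, 1 higher and 0 lower at an unadjusted p under 0.05, and a median log2 fold change of 0.02. The gene was *Alas1*, the form of aminolevulinate synthase outside the erythroid line. *Alas1* was 603 to 702 CPM in WT and 712 to 790 CPM in KO without overlap, with a log2 fold change of 0.25 (SE 0.08, edgeR adjusted p = 0.372). Its mean level of 1023 TPM was far above that of *Alas2*, so most aminolevulinate synthase RNA of this tissue was of the general form. *Alad* (132 TPM) and *Urod* (68.0 TPM), both later enzymes of the pathway, had levels below that of *Alas1*, and for both the KO and WT libraries overlapped.

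Membrane and skeleton genes had 13 of 15 tested, 1 higher and 2 lower at an unadjusted p under 0.05, and a median log2 fold change of 0.00 in size. Among the lower genes was *Gypc*, glycophorin C, with a log2 fold change of -0.22 (SE 0.08, edgeR adjusted p = 0.484). *Gypc*, *Epb41* and *Sptb* had the highest levels of the list, at 15.9, 12.0 and 6.28 TPM. Maturation and metabolism genes had 12 of 16 tested (*Ahsp* was not matched), 1 higher and 0 lower, and a median of 0.02. *Tspan33* and *Bnip3l*, the receptor that clears mitochondria from reticulocytes, had higher values in every KO library than in any WT library.

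Erythroid regulators had 8 of 9 tested, 0 higher and 2 lower at an unadjusted p under 0.05, and a median log2 fold change of -0.07. The pair was *Nfe2* (log2 fold change -0.58, SE 0.24, edgeR adjusted p = 0.53) and *Tal1* (-0.25, SE 0.11, edgeR adjusted p = 0.546), transcription factors of the erythroid and megakaryocyte lines, of which *Tal1* is also expressed in endothelium. The erythropoietin receptor gene *Epor* had a log2 fold change of 0.26 (SE 0.20, edgeR adjusted p = 0.746), and the transferrin receptor gene *Tfrc*, which dividing cells of many kinds express, had the highest level of the list at 46.3 TPM. Genes of haem and haemoglobin clearance and iron handling had 18 of 19 tested, 1 higher and 1 lower, and a median of -0.02. Haemopexin (*Hpx*), which binds free haem, had a log2 fold change of 0.74 (SE 0.31, edgeR adjusted p = 0.537), and haptoglobin (*Hp*), which binds free haemoglobin, one of -0.46 (SE 0.18, edgeR adjusted p = 0.508). The ferritin genes *Ftl1* and *Fth1*, which store iron, and transferrin (*Trf*) had the highest levels of that list, and their KO and WT libraries overlapped. The macrophage iron transporter gene *Slc11a1* had a log2 fold change of -0.54 (SE 0.24, edgeR adjusted p = 0.568).

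Lists of the other cell types held no gene called by edgeR. DESeq2 called 2 of the 6 smooth muscle genes, against 145 of 19233 over all genes. Of all genes tested, 3.84% were higher and 5.1% lower in KO at an unadjusted edgeR p under 0.05. At an unadjusted edgeR p under 0.05, 4 of 6 smooth muscle markers, 2 of 13 endothelial markers (*Cdh5* and *Tek*), 1 of 8 stromal fibroblast markers and 1 of 6 theca markers were lower in KO. Of the 8 neutrophil markers tested 1 was higher (*Camp*) and 1 lower (*Ltf*), 1 of 7 lymphocyte markers was higher (*Ms4a1*), and 0 of 6 platelet, 0 of 8 macrophage and 0 of 8 granulosa markers passed. The 3 oocyte markers named above were higher. Whether the makeup of the tissue had a part in the red cell values was not tested.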

How the data were processed

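The libraries (4 WT, 3 KO) were stranded mRNA libraries sequenced as paired 100 bp reads. The authors ran Salmon (version not given in the sources used here) on the GRCm39 mouse transcriptome, each library separately, and deposited expected counts and TPM per transcript. Transcripts were matched by identifier to GENCODE M39 (137570 of 139225, with 99.37% to 99.4% of reads) and summed per gene. Expected counts were rounded and tested with edgeR 4.0.16 in R 4.3.3 (TMM, filterByExpr, quasi-likelihood, two-sided, Benjamini-Hochberg over 19233 genes), with each globin pair also tested as 1 summed gene. CPM used TMM factors. Fold intervals are 95%, from the SE and the fit's degrees of freedom. Depth was 47372446 to 63416875 reads, and the common biological coefficient of variation was 0.127. The code was tested on simulated data. Alternatives were DESeq2 1.42.0, limma-voom (limma 3.58.1), median-of-ratios scaling, totals without globin reads, no filter, a minimum of 10 counts per library, a replicate block, log2(TPM + 0.1) and log2(TPM + 1) in limma, and each library left out.

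The members and lists were chosen with earlier results of these data known. Genes named from the red cell lists are those called, the 3 highest by TPM and the 3 with the lowest p, except where said to be chosen after their values were seen. Genes of the cell type lists are named where a count of them is given or a result turns on them. Upstream sequences came from the RefSeq table, which held 5 of the 6 members. Some genes that this rule names are not reported here.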

Additional observations from a re-analysis of the deposited data

How the results depend on the processing

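No alternative brought a red blood cell gene or globin pair past the threshold for a call. The direction of the globins and of Alas2 depended on KO replicate 3. With each library left out in turn, the log2 fold change of KO over WT ran from -0.0098 to 0.43 for Hba-a1, -0.069 to 0.43 for Hba-a2, -0.14 to 0.34 for Hbb-bs, -0.12 to 0.36 for Hbb-bt, -0.18 to 0.26 for Alas2, -0.043 to 0.43 for the alpha pair and -0.14 to 0.34 for the beta pair, each negative only without KO replicate 3. For Slc4a1 it ran from 0.12, without KO replicate 4, to 1.56, without KO replicate 2. On log2(TPM + 0.1) and log2(TPM + 1), which shrink a gene this scarce, it was 0.51 and 0.12. Slc4a1 has no value under the minimum of 10 counts in every library, and DESeq2 gave it no adjusted p. Scaling by median-of-ratios or without globin totals turned no direction.

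The count of genes called over all genes was 2 in edgeR and 145 in DESeq2. It was 36 without a filter (32790 genes tested), 6 with at least 10 counts in every library, 1 with log2(TPM + 1), and 1 to 4 with each library left out. Neither the labels nor the methods say that a replicate number marks shared mice or a batch. Deviations of same-numbered libraries correlated by -0.01, 0.11 and 0.08 for replicates 2, 3 and 4. Those of differently numbered KO and WT libraries correlated by -0.13 to 0.0975, so the value for replicate 3 was the highest of all pairs. With a replicate block 26 genes were called, none of them a red blood cell gene, and the log2 fold changes were 0.26 for Hba-a1, 0.22 for Hba-a2, 0.19 for Hbb-bs, 0.20 for Hbb-bt, 0.12 for Alas2 and 0.88 for Slc4a1. The cause of these differences was not tested. Slc4a1 was scarce, with 8 to 55 reads per library, and its difference between groups was not detectable beyond 1 library. Whether depth had a part in this was not tested. No WT value met the criterion for a sample far from the others, and the KO group of 3 is too small for it.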
